A study of Mus musculus with 6 samples.

Results

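The Rbfox family consists of 3 paralogous genes, Rbfox1, Rbfox2 and Rbfox3, and its transcripts were followed here through the deposited table of RSEM isoform counts. Members were all rows whose transcript name, without its final number, is one of these 3 gene symbols. The rule gave 26 of the 133944 isoforms in the table, of which 2 belong to Rbfox1, 14 to Rbfox2 and 10 to Rbfox3. The counts come from the hippocampi of 6 C57BL/6 mice aged 3 months, with 1 stranded total RNA library per mouse. The 3 N-cre mice carry Nes-Cre alone, and the 3 N-cre;Fox1 mice carry Nes-Cre together with a single copy of R26-Rbfox1, a murine Rbfox1 cDNA behind a CAG promoter and a floxed STOP cassette at the Gt(ROSA)26Sor locus. Cre is driven by the nestin promoter in both groups, so the comparison is between mice with and without the activated cDNA, and no mouse without Cre was sequenced here. The R26-Rbfox1 allele was made in 129/sv embryonic stem cells and backcrossed to C57BL/6J. The question addressed was whether the amount of each family member, and the way each gene is divided between its isoforms, differed between the genotypes.

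Rbfox proteins bind the RNA element UGCAUG through a single RNA recognition motif (RRM) and promote or repress the inclusion of neighbouring exons. In the adult brain they are known mostly as neuronal splicing regulators, and the Rbfox3 protein is the NeuN antigen used to label mature neurons. Each gene is itself alternatively spliced at its start, inside the RRM and towards the C terminus, and the proteins are known to bind their own pre-mRNAs. Rbfox proteins also act in a large assembly of splicing regulators that includes hnRNP M, hnRNP H, Matrin 3 and the NF45 and NF90 proteins.

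A pair of alternative exons that bear on protein function separates deposited isoforms of Rbfox2 and of Rbfox3. The exon of 93 nt encodes part of the RRM, and its omission is known to leave a protein that binds RNA poorly and can act against the full-length form. It was found by a script as the 93-nt exon followed by a 61-nt exon in each gene of GENCODE M21, a later annotation of the same mm10 build. It lies at chr16:7292185-7292277 on the plus strand in Rbfox1, at chr15:77105577-77105669 on the minus strand in Rbfox2 and at chr11:118502842-118502934 on the minus strand in Rbfox3. The coding sequences are shown 5′ to 3′ because the Rbfox2 and Rbfox3 isoforms that lack them are counted separately further on. Capitals mark bases that all 3 genes share.
Rbfox1 93-nt exon: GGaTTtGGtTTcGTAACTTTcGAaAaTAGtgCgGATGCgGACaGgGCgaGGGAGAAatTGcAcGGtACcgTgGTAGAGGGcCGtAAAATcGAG
Rbfox2 93-nt exon: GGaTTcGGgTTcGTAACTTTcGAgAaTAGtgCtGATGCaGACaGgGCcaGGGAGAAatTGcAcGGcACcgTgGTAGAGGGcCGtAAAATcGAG
Rbfox3 93-nt exon: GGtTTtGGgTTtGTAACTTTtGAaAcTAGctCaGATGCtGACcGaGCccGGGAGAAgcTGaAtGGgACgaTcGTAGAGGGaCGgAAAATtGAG
The 3 genes had the same base at 67 of 93 positions. Rbfox1 and Rbfox2 shared 86 of 93 bases, and each of them shared 69 with Rbfox3.

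Further downstream lies an exon of 40 nt, used mainly in brain, that in Rbfox1 and Rbfox2 alternates with an exon of 43 nt known from muscle. The 40-nt exon is at chr16:7363865-7363904 on the plus strand in Rbfox1, at chr15:77094451-77094490 on the minus strand in Rbfox2 and at chr11:118496351-118496390 on the minus strand in Rbfox3. The 43-nt exon is at chr16:7369801-7369843 on the plus strand in Rbfox1 and at chr15:77091812-77091854 on the minus strand in Rbfox2. Both exons are coding, and capitals mark the bases shared by all 3 genes for the first and by both genes for the second.
Rbfox1 40-nt exon: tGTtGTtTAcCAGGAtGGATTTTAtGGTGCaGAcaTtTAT
Rbfox2 40-nt exon: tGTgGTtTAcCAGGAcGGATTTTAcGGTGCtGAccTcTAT
Rbfox3 40-nt exon: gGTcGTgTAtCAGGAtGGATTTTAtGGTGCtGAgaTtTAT
Rbfox1 43-nt exon: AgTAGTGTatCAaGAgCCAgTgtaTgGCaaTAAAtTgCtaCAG
Rbfox2 43-nt exon: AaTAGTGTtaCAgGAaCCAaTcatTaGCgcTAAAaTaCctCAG
The 40-nt exon was the same at 30 of 40 positions in all 3 genes, and the 43-nt exon at 27 of 43 positions in Rbfox1 and Rbfox2. Both deposited Rbfox1 isoforms contain the 93-nt and the 40-nt exon, so omission of either from Rbfox1 cannot be read from these counts. The Rbfox1 43-nt exon occurs only in transcripts of the later annotation, of which 6 for Rbfox1 and 1 for Rbfox2 are not in the deposited table, so its use cannot be read from these counts. No stretch of 30 nt was shared between isoforms of different Rbfox genes. Within a gene, the share of an isoform's 30-nt windows found in no other isoform ranged from 0% to 73.5%.

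The libraries held 40463587 to 62141336 expected counts each, and the 3 Rbfox genes together took 0.0749% to 0.0813% of them. An expected count is RSEM's estimate of the read pairs from an isoform and need not be a whole number. Only replicate 1 of each genotype had over 1000 Xist counts, so that this difference between mice was balanced over the groups. All 10 neuron markers checked were detected, and their summed normalized counts overlapped between N-cre (329092 to 344003) and N-cre;Fox1 mice (316884 to 339764). By log2 fold change 1 of the 10 was higher and 9 lower in the N-cre;Fox1 group, 0 past an unadjusted p of 0.05 in edgeR. All 3 CA1 markers were lower, also 0 past it. Of 3 dentate granule and 3 CA3 markers, 2 each were higher and 1 lower. The summed counts of 8 astrocyte markers did not overlap, at 220447 to 231617 in the N-cre group and 233276 to 252620 in the N-cre;Fox1 group. By log2 fold change, 5 of the 8 were higher and 3 (Aldh1l1, Slc1a3 and Gjb6) lower in the N-cre;Fox1 group. Of the 8, 4 (Gfap, Aqp4, Slc1a2 and Gja1) were higher in all N-cre;Fox1 mice than in all N-cre mice, against 12.1% of all genes without overlap. In edgeR 0 of 8 passed an adjusted and 4 of 8 an unadjusted p of 0.05, against 6.19% of all genes past the unadjusted p. All 3 striatal markers were lower in N-cre;Fox1 mice, 2 of them past the unadjusted p and 0 past the adjusted p in edgeR, and their summed counts were 845 to 981 against 720.1 to 839. The part of these markers in the values below was not tested, and in whole hippocampus fewer cells of a type and less RNA per cell cannot be told apart. The summed counts of 4 choroid plexus markers ranged from 1359 to 116903 in the N-cre group and from 1405 to 262840 in the N-cre;Fox1 group. The high values were those of single mice, N-cre mouse 3 (111007 counts of Ttr) and N-cre;Fox1 mouse 2 (251900).

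All 3 genes were abundantly expressed, and the order of their levels was Rbfox1, then Rbfox3, then Rbfox2 in each of the 6 mice. Levels of different genes were compared in TPM, the expected counts divided by annotated isoform length and scaled to the same total in every library. Rbfox1 (ENSMUSG00000008658.16, chromosome 16 from 5885355 to 7411526) was at 259, 249 and 255 TPM in N-cre mice 1, 2 and 3, and at 284, 248 and 274 TPM in the N-cre;Fox1 group 1, 2 and 3. The N-cre;Fox1 mice held both the highest and the lowest value, so the genotypes overlapped. Rbfox3 (ENSMUSG00000025576.17, chromosome 11 from 118489762 to 118911597) was at 195, 192 and 189 TPM in the N-cre group and at 199, 180 and 203 TPM in the N-cre;Fox1 group. Rbfox2 (ENSMUSG00000033565.18, chromosome 15 from 77078990 to 77307004) was at 139, 138 and 134 TPM in the N-cre group and at 137, 131 and 127 TPM in the N-cre;Fox1 group. The ranges of the 3 genes over all mice did not overlap, and the same order held with 200 nt taken from each length. By expected counts without length, Rbfox2 came before Rbfox1 in mean, at 38.1% against 34.9% of the family's counts in N-cre mice, and its main isoform Rbfox2-203 is 6573 nt long. Among 31068 gene symbols with a TPM above 0, Rbfox1 ranked 552, Rbfox3 808 and Rbfox2 1293.

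**Figure D1:**
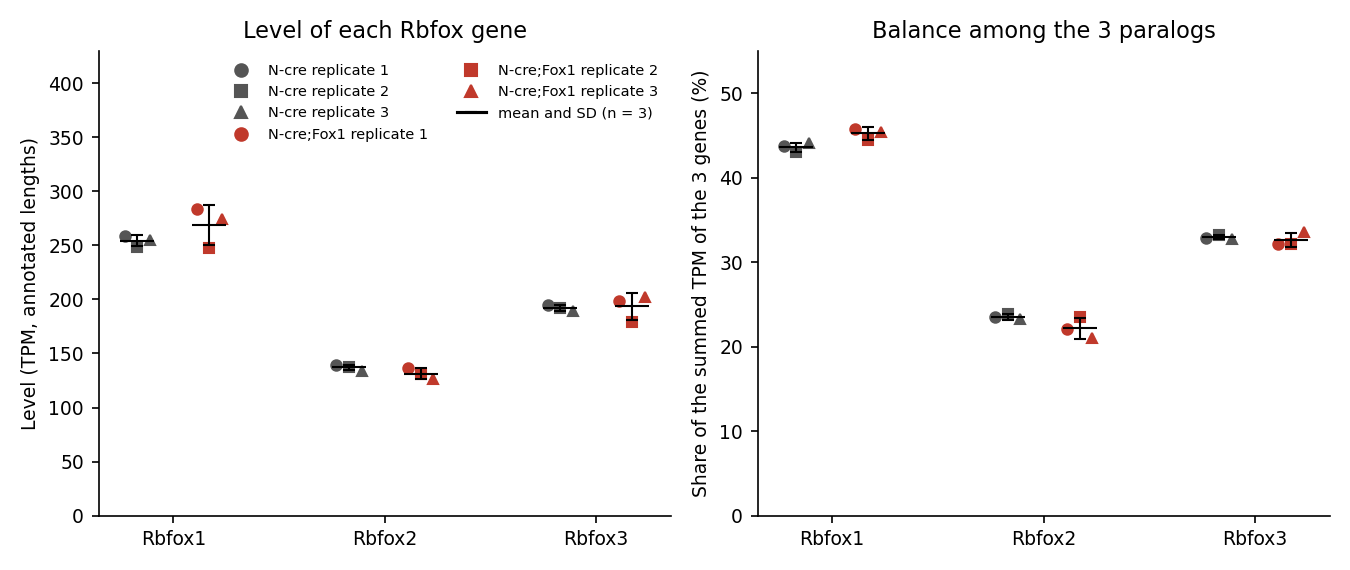
Left, level of each Rbfox gene in TPM, and right, its percent of the summed TPM of the 3 genes, with 1 point per mouse and bars for the mean and SD of 3 mice per genotype. Rbfox1 is highest and Rbfox2 lowest in every mouse, and the share of Rbfox1 lies at 42.996% to 44.1% in the N-cre group and at 44.4% to 45.8% in the N-cre;Fox1 group.

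None of the 3 gene sums differed detectably between the genotypes. The 3 isoform sums were tested on counts with edgeR's quasi-likelihood test across 18924 genes, and 0 of 3 passed an adjusted or an unadjusted p of 0.05, as with limma-voom and DESeq2 (0 of 3 each, against 0.0317% and 0.264% of all genes after adjustment). Of all genes tested, 0.0264% were called and 6.19% had an unadjusted p under 0.05. The genotypes overlapped for 3 of 3 Rbfox sums and did not overlap for 12.1% of all genes. The Rbfox1 sum, whose normalized counts were 15286, 14456 and 14698 in the N-cre group and 15939, 13571 and 15283 in the N-cre;Fox1 group, gave a fold change of 1.01 with a 95% confidence interval of 0.923 to 1.10. N-cre;Fox1 mice held both the highest and the lowest of these counts, and the sum alone does not check the genotype labels. The lowest was that of N-cre;Fox1 mouse 2, which had the highest choroid plexus markers. N-cre mouse 3, the other mouse with high choroid plexus markers, had 14698, above the 14456 of N-cre mouse 2. Without each mouse in turn the log2 change of the Rbfox1 sum ran from -0.033 to 0.076. It was highest without N-cre;Fox1 mouse 2 (adjusted p = 0.784 in edgeR), and the part of the choroid plexus in this was not tested. The Rbfox3 sum was 11761, 11381 and 11189 in the N-cre group and 11601, 10517 and 11936 in the N-cre;Fox1 group, a fold change of 0.992 (95% confidence interval 0.922 to 1.07) and an adjusted p of 0.989 in edgeR. The Rbfox2 sum had the narrowest spread, at 16312, 16301 and 15869 in the N-cre group and 16029, 15052 and 15229 in the N-cre;Fox1 group. Its fold change was 0.955 (95% confidence interval 0.901 to 1.01), and N-cre;Fox1 mouse 1 lay within the range of the N-cre mice.

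The balance among the paralogs moved by less than 2 percentage points. The share of Rbfox1 in the summed TPM of the family was 43.6% ± 0.548 (SD, n = 3) in the N-cre group and 45.2% ± 0.725 (SD, n = 3) in the N-cre;Fox1 group. All N-cre;Fox1 mice were above all N-cre mice, and the exact permutation test of this difference of 1.62 percentage points gave the smallest p that 3 against 3 mice allow (two-sided p = 0.1). By expected counts without length the difference was 0.834 percentage points and the genotypes overlapped (exact permutation p = 0.3). Of the Rbfox1 isoforms, the short Rbfox1-202 had a mean of 66.8 TPM in the N-cre group and 86.2 TPM in the N-cre;Fox1 group. Rbfox1-201 had 188 and 182 TPM, so the higher Rbfox1 TPM was that of Rbfox1-202, described below. The share of Rbfox2 was 23.5% ± 0.309 and 22.2% ± 1.24, and that of Rbfox3 32.9% ± 0.239 and 32.6% ± 0.851 (mean ± SD of 3 mice), with overlap of the genotypes in both (exact permutation p = 0.2 and 0.6). After Benjamini-Hochberg adjustment over the 3 shares, the exact permutation p was 0.3 for Rbfox1, 0.3 for Rbfox2 and 0.6 for Rbfox3.

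Of the 26 isoforms, 17 had enough counts to be tested, and these held 99.99% of the normalized counts of the family. The other 9 were Rbfox2-202, Rbfox2-204, Rbfox2-211, Rbfox2-212 and Rbfox3-210, which were listed at 0 in all 6 mice, and Rbfox2-205, Rbfox2-208, Rbfox2-210 and Rbfox3-207, each with a mean of at most 1.21 normalized counts. Among the 17, 9 were higher and 8 lower in the N-cre;Fox1 group and 0 passed an adjusted p of 0.05 over 50556 isoforms in edgeR's quasi-likelihood test, where 0% of all isoforms were called. The count at an unadjusted p of 0.05 was 1 of 17, against 4.78% of all isoforms, and that isoform was Rbfox1-202. DESeq2's Wald test called the same isoform after adjustment, where it called 0.425% of all isoforms, and limma-voom called 0 of 17, where it called 0%.

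**Figure D2:**
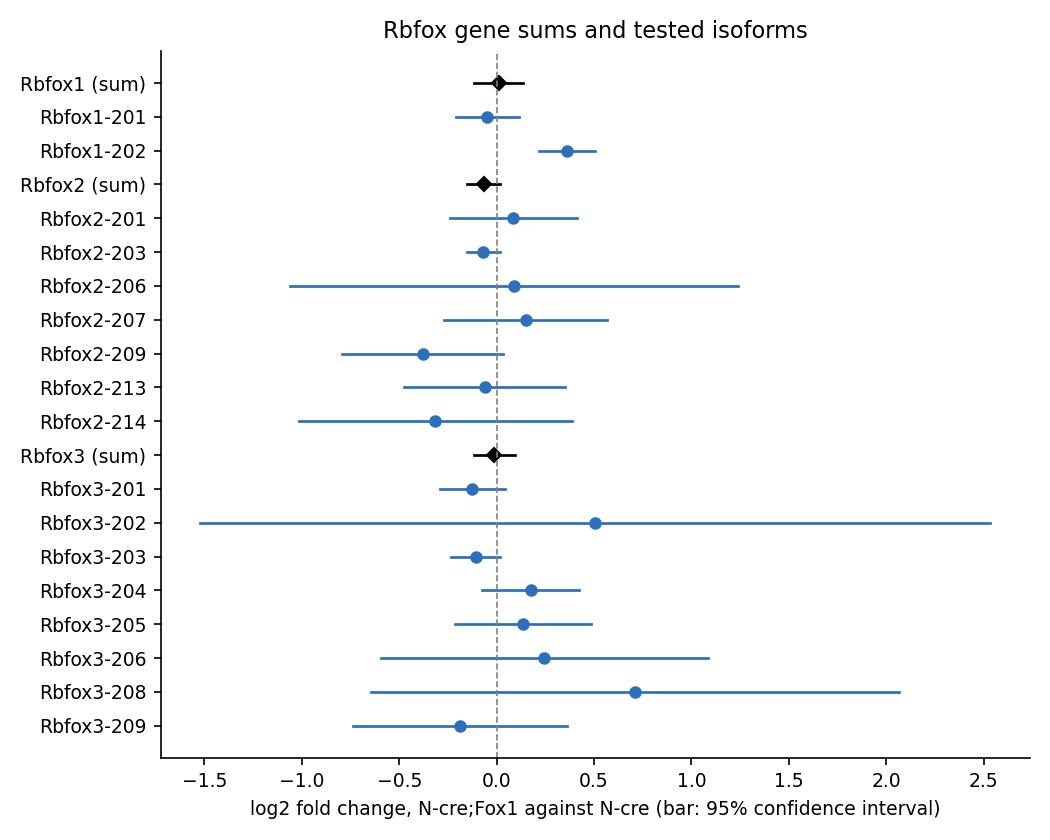
Log2 fold change of N-cre;Fox1 against N-cre mice for the 3 gene sums (black diamonds) and the 17 tested isoforms (blue circles), with 95% confidence intervals from edgeR as bars. The interval of Rbfox1-202 (0.22 to 0.50) lies above 0 and those of the other isoforms and of the sums include 0.

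Rbfox1 was divided unequally between its 2 deposited isoforms, and the smaller one took more of the gene in the N-cre;Fox1 group. Rbfox1-201 (ENSMUST00000056416.7) has a later version in M21, with 3061 nt in 15 exons. The version that was counted may differ from it in length and windows. Rbfox1-202 (ENSMUST00000115841.9) has 1191 nt in 13 exons, from 6809222 to 7409813. The 2 isoforms have the same coding length of 1188 nt, which leaves almost nothing of Rbfox1-202 outside the coding sequence. Its whole sequence is inside Rbfox1-201 from an offset of 157 nt, so that it has 0 of 1162 windows of 30 nt of its own, whereas Rbfox1-201 has 1870 of 3032. Reads of a cDNA expressed from the Gt(ROSA)26Sor locus and reads of the endogenous gene cannot be told apart in these counts.

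The normalized count of Rbfox1-202 was 1753, 1778 and 1881 in the N-cre group and 2430, 2167 and 2353 in the N-cre;Fox1 group. All N-cre;Fox1 mice lay above all N-cre mice, which held for 5.86% of all isoforms tested. The change of 0.36 on the log2 scale (SE 0.0587), a fold change of 1.28 with a 95% confidence interval of 1.16 to 1.42, had an adjusted p of 0.623 in edgeR and of 0.00105 in DESeq2's Wald test, while the edgeR, limma-voom and DESeq2 alternatives together ranged from 0.00105 to 0.9748. The count of Rbfox1-201 was 13561, 12693 and 12801 in the N-cre group and 13505, 11411 and 12895 in the N-cre;Fox1 group. It overlapped between the genotypes, with a fold change of 0.968 (95% confidence interval 0.865 to 1.08). As a share of the gene's expected counts, Rbfox1-202 made up 11.4%, 12.3% and 12.8% in the N-cre group and 15.2%, 15.96% and 15.4% in the N-cre;Fox1 group, a difference of 3.36 percentage points between the means of 12.2% ± 0.69 and 15.5% ± 0.368 (SD, n = 3). The exact permutation p was 0.1, the smallest possible, and 0.525 after adjustment over the 21 isoform shares above 0. Shares that do not overlap between the genotypes were found for 11.1% of 41657 isoforms in the whole table. Per length, Rbfox1-202 was at 66.8 ± 2.74 TPM in the N-cre group and at 86.2 ± 4.34 TPM in the N-cre;Fox1 group (SD, n = 3), and its share of Rbfox1 was 26.3% ± 1.25 and 32.1% ± 0.609, without overlap of the mice. The summed astrocyte markers also did not overlap between the genotypes, and their part in this was not tested.

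A test of isoform use, which asks whether an isoform changed relative to its own gene, was run on the whole isoform table with edgeR's diffSpliceDGE. In this test 0 of the 17 Rbfox isoforms passed an adjusted p of 0.05, against 0.217% of 42441 isoforms, and 1 of 17 had an unadjusted p under 0.05, against 2.03%. That isoform was again Rbfox1-202, which changed relative to Rbfox1 by 0.35 on the log2 scale (adjusted p = 1.00). With limma's diffSplice the change was 0.42 and the adjusted p 0.244, the lowest over the alternatives. Per gene, 0 of 3 Rbfox genes passed, against 0.831% of 10591 genes, and 1 of 3 (Rbfox1) had an unadjusted p under 0.05 in edgeR, against 3.01%.

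**Figure D3:**
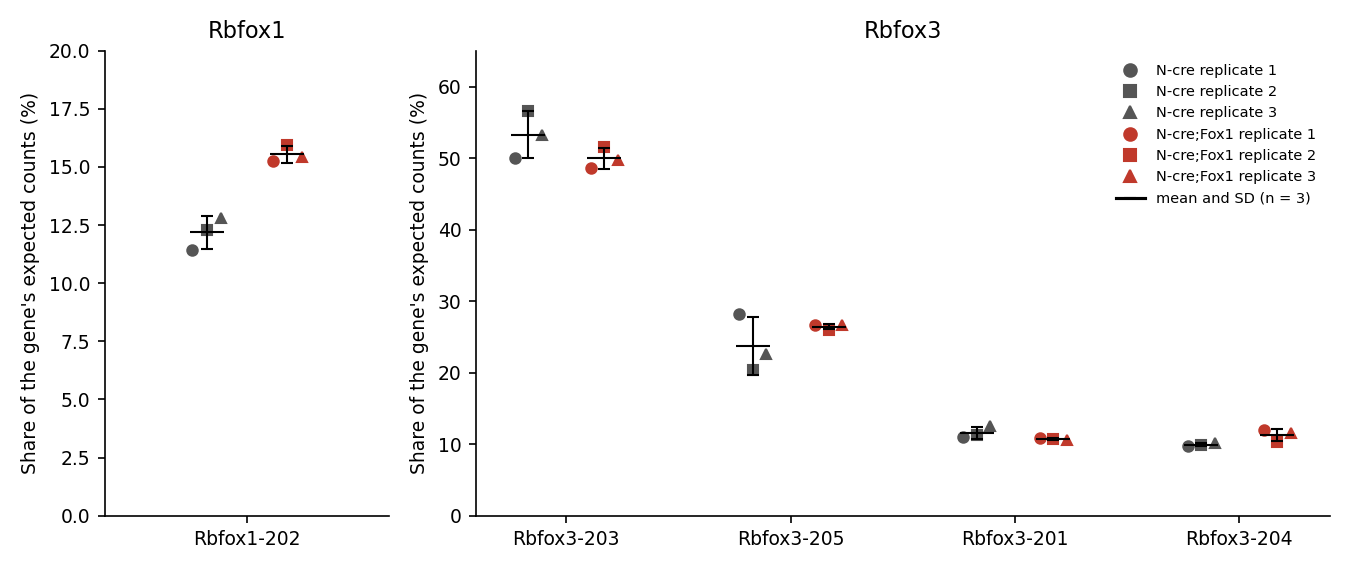
Percent of the expected counts of its gene for Rbfox1-202 (left) and for the 4 largest Rbfox3 isoforms (right), with 1 point per mouse and bars for the mean and SD of 3 mice. Rbfox1-202 lies at 11.4% to 12.8% in the N-cre group and at 15.2% to 15.96% in the N-cre;Fox1 group, whereas Rbfox3-203 and Rbfox3-205 overlap between the genotypes.

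Rbfox2 was dominated by 1 isoform, and its division was nearly the same in both genotypes. Rbfox2-203 (ENSMUST00000166610.7), which carries the 93-nt and the 40-nt exon, made up 93.9%, 94.2% and 94.3% of the expected counts in the N-cre group and 94.0%, 93.9% and 94.6% in the N-cre;Fox1 group. Per length its share was 74.5% ± 0.678 and 74.5% ± 1.77 (SD, n = 3). Its normalized count was 15346, 15372 and 14947 in the N-cre group and 15060, 14134 and 14373 in the N-cre;Fox1 group, with a fold change of 0.954 (95% confidence interval 0.899 to 1.01). Next came Rbfox2-213 at 330 normalized counts, Rbfox2-201 at 253 and Rbfox2-209 at 181, as means over all 6 mice. Rbfox2-209 had the lowest fold change of the tested Rbfox2 isoforms, with 221, 213 and 180 normalized counts in the N-cre group and 136, 151 and 186 in the N-cre;Fox1 group. The fold was 0.769 (95% confidence interval 0.577 to 1.02), and N-cre mouse 3 lay below N-cre;Fox1 mouse 3.

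Isoforms of Rbfox2 start at several first exons, which give the protein different N-termini. Those that begin at the most proximal of the 3 main first exons, with its splice site at 77153530 (Rbfox2-203 and 5 others), held 96.1% ± 0.178 of the expected counts in the N-cre group and 96.0% ± 0.59 in the N-cre;Fox1 group (SD, n = 3). The most distal first exon, at 77306364 (Rbfox2-201, Rbfox2-204 and Rbfox2-214), held 1.81% ± 0.108 and 1.94% ± 0.213, and the middle one, at 77245490 (Rbfox2-212 and Rbfox2-213), 2.08% ± 0.0897 and 2.09% ± 0.386. The genotypes overlapped for all 3 (exact permutation p = 0.9, 0.4 and 1). Per length the proximal first exon held less and the others more, at 81.5% ± 0.641 and 81.3% ± 2.6 for the proximal, 12.3% ± 0.443 and 12.3% ± 2.07 for the middle and 6.04% ± 0.373 and 6.31% ± 0.631 for the distal one in N-cre and N-cre;Fox1 mice (SD, n = 3). The 40-nt exon, printed above, was present in 97.7% of the counts of isoforms that span it in N-cre mice and in 97.5% in the N-cre;Fox1 group, a difference of 0.28 percentage points. It was lower in all N-cre;Fox1 mice than in all N-cre mice (exact permutation p = 0.1, the smallest possible, and 0.68 after adjustment over 17 exon classes). Only 1 of the 17 classes showed no overlap, and such classes were not counted over all genes. Per length the shares were 91.1% ± 0.154 and 89.9% ± 0.691 (SD, n = 3), a difference of -1.13 percentage points, also without overlap. Isoforms with the 43-nt exon took 0.701% ± 0.0855 and 0.807% ± 0.122, and those with neither exon 1.55% ± 0.0666 and 1.73% ± 0.182, with overlap of the genotypes in both.

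The form of Rbfox2 without the 93-nt RRM exon was a small part of the gene. Rbfox2-207 and Rbfox2-208, the isoforms that skip it, together took 0.548%, 0.559% and 0.53% of the counts of isoforms that span the exon in the N-cre group and 0.517%, 0.731% and 0.646% in the N-cre;Fox1 group. N-cre;Fox1 mouse 1 was the lowest of all 6 and the other 2 of its group the highest (exact permutation p = 0.4). Per length these isoforms took 2.76% ± 0.072 and 3.19% ± 0.549 (SD, n = 3), with the same overlap. Rbfox2-207, which also carries the 43-nt exon, had 89.2, 88.6 and 81.7 normalized counts in the N-cre group and 82.7, 108 and 96.6 in the N-cre;Fox1 group.

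Rbfox3 was spread over 4 abundant isoforms. Rbfox3-203 (ENSMUST00000103023.7), which starts at a first exon of its own with the splice site at 118760828, made up 49.9998%, 56.6% and 53.3% of the expected counts in the N-cre group and 48.6%, 51.5% and 49.7% in the N-cre;Fox1 group. Rbfox3-205 (ENSMUST00000117731.7) followed with 28.2%, 20.4% and 22.7% in the N-cre group and 26.6%, 25.98% and 26.6% in the N-cre;Fox1 group. These 2 isoforms moved against each other among the N-cre mice, where mouse 1 had the least Rbfox3-203 and the most Rbfox3-205, and the genotypes overlapped for both. Rbfox3-201 took 11.6% ± 0.822 in the N-cre group and 10.7% ± 0.142 in the N-cre;Fox1 group, and Rbfox3-204 took 9.92% ± 0.187 and 11.3% ± 0.891 (SD, n = 3). The shares of both did not overlap, Rbfox3-201 being lower and Rbfox3-204 higher in the N-cre;Fox1 group (exact permutation p = 0.1 each, adjusted p = 0.525). In all, 4 of 21 isoform shares had no overlap, of which the 2 of Rbfox1 are complements, against 11.1% of the 41657 filtered isoform shares. The least counted of the 21, such as Rbfox2-205 and Rbfox3-207, do not reach that filter. The Rbfox3-201 difference of -0.87 percentage points rested in part on N-cre mouse 3 and was -0.41 without it. The 4 other tested Rbfox3 isoforms had a mean of 13.9 to 76.6 normalized counts.

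In normalized counts Rbfox3-201 was at 1289, 1288 and 1399 in the N-cre group and at 1261, 1124 and 1262 in the N-cre;Fox1 group, with a fold change of 0.918 (95% confidence interval 0.817 to 1.03). It was the second isoform of the family without overlap of the genotypes, which makes 2 of 17 against 11.5% of all isoforms. Rbfox3-204 was at 1149, 1127 and 1131 in the N-cre group and at 1390, 1081 and 1375 in the N-cre;Fox1 group, where mouse 2 was the lowest of all 6. None of its 1513 windows of 30 nt was its own, as for Rbfox1-202, while Rbfox3-201 had 800 of 3121.

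The first exon with its splice site at 118909304, shared by Rbfox3-201, Rbfox3-204, Rbfox3-205 and Rbfox3-206, held 49.4%, 42.3% and 45.9% of the Rbfox3 counts in the N-cre group and 50.02%, 47.6% and 49.8% in the N-cre;Fox1 group (exact permutation p = 0.2). Towards the C terminus, Rbfox3-203, Rbfox3-204 and Rbfox3-206 carry the 40-nt exon printed above, and Rbfox3-201, Rbfox3-202 and Rbfox3-205 carry a longer form of it, so that the coding length of Rbfox3-205 is 1080 nt and that of Rbfox3-203 and Rbfox3-204 is 939 nt. The longer form held 35.8% ± 3.6 of the counts in the N-cre group and 37.7% ± 0.65 in the N-cre;Fox1 group (SD, n = 3, exact permutation p = 0.5). The NeuN protein is known to occur in a larger and a smaller form. Rbfox3-202, the only Rbfox3 isoform that skips the 93-nt RRM exon, had 17.5, 51.6 and 11.3 normalized counts in the N-cre group and 74.4, 29.6 and 10.7 in the N-cre;Fox1 group. Rbfox3-202 varied more within each genotype than between them, at 26.8 ± 21.7 in the N-cre group and 38.2 ± 32.7 in the N-cre;Fox1 group (SD, n = 3). Its fold change was 1.42 with a 95% confidence interval of 0.348 to 5.79.

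**Figure D4:**
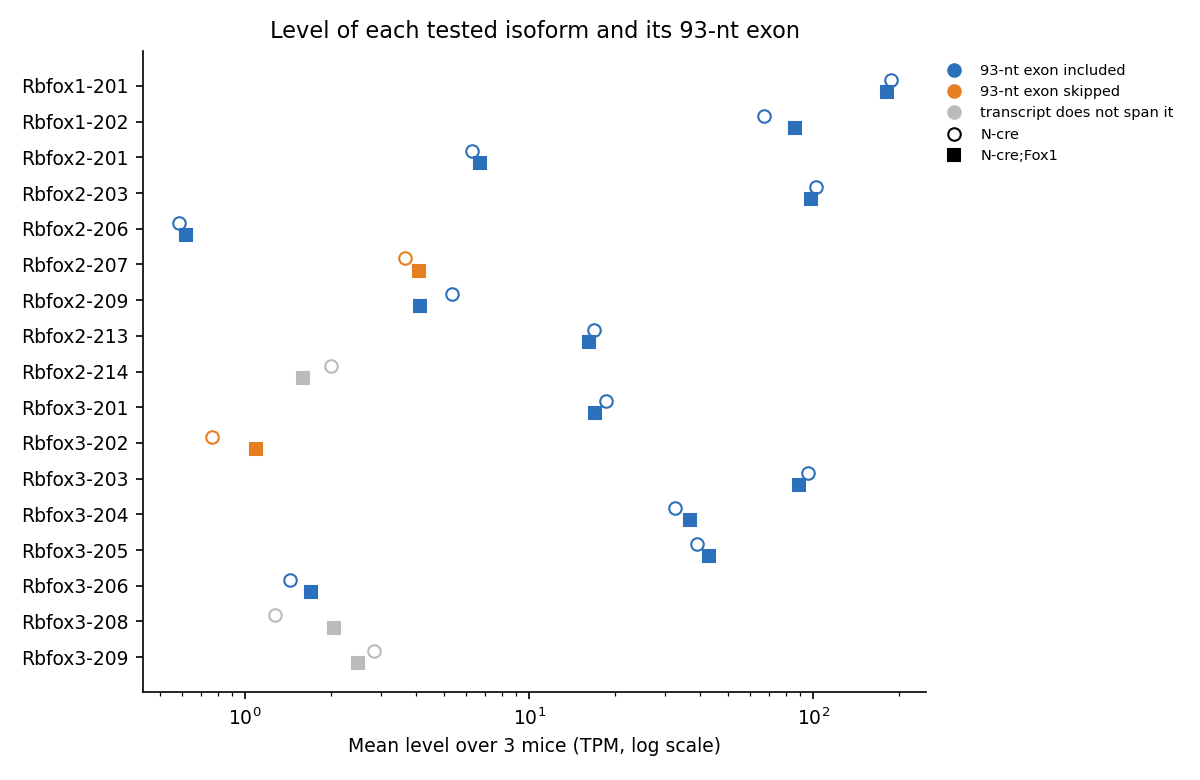
Mean level over 3 mice of each of the 17 tested isoforms in TPM on a log scale, with open circles for N-cre and filled squares for N-cre;Fox1 mice, coloured by whether the transcript includes, skips or does not span the 93-nt RRM exon. Rbfox2-207 (3.66 and 4.08 TPM) and Rbfox3-202 (0.761 and 1.09 TPM), which skip it, lie far below the main isoform of their gene.

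Partner proteins of the Rbfox assembly and genes with exons that Rbfox proteins are known to regulate were read from the same fits. Of the 8 partner genes, 4 were higher and 4 lower in the N-cre;Fox1 group and 0 passed an adjusted or an unadjusted p of 0.05 in edgeR (0 also with limma-voom and DESeq2 after adjustment), with a median log2 fold change of 0.00 beside -0.00 over all 18924 genes. The highest was Hnrnph1, a splicing factor that binds G-rich elements, at 12777 ± 171 normalized counts in the N-cre group and 13093 ± 599 in the N-cre;Fox1 group (SD, n = 3). The lowest was Ilf2, the NF45 subunit, at 3677 ± 129 and 3525 ± 109. Of the 16 target genes, 7 were higher and 9 lower, 0 passed an adjusted or an unadjusted p of 0.05, and the median was -0.00. Their extremes were Cacna1c, the pore subunit of an L-type calcium channel, at 7602 ± 242 and 7946 ± 288, and Mef2c, a neuronal transcription factor, at 5601 ± 672 and 5236 ± 339 normalized counts.

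For isoform use, 1 of the 23 partner and target genes with several tested isoforms passed an adjusted p of 0.05, against 0.831% of all genes. This was Src, the tyrosine kinase whose neuronal N1 exon of 18 nt is an Rbfox target, with an adjusted p of 0.0384 (Simes test over its isoforms in edgeR). The isoform that set it apart was Src-201, which lacks the 18-nt exon. Src-201 had 35.1, 0 and 0 expected counts in the N-cre group and 425, 173 and 140 in the N-cre;Fox1 group. Only 24 of its 3877 windows were its own, and 26 of 3557 for Src-204, which also lacks the exon. Src-204 took 22.7%, 24.1% and 24.0% of the Src counts in the N-cre group and 16.4%, 23.9% and 25.7% in the N-cre;Fox1 group. The part of RSEM's division of shared reads in the Src-201 counts was not tested. The Src call was lost on a filter of 10 counts in every mouse (adjusted p = 1.00, with Src-201 not tested and Hnrnpc called), with limma (0.486, where Hnrnpc was called in its place) and with the replicate number as a block (0.0523). It was also lost without N-cre mouse 2 (0.192) or 3 (0.151) and without N-cre;Fox1 mouse 1 (0.259), 2 (0.106) or 3 (0.0634, with Camta1 called), and kept without N-cre mouse 1 (0.00145). Of the counts of its 5 coding isoforms, those with the 18-nt exon took 76.9%, 75.8% and 76.0% in the N-cre group and 77.9%, 73.7% and 72.6% in the N-cre;Fox1 group, with overlap (exact permutation p = 0.4).

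For each Rbfox gene, the genes whose log2 normalized counts were most alike over the 6 mice were listed among 13737 genes with a mean of at least 100 counts. For Rbfox1 these were Mical2, an actin-oxidizing enzyme (Pearson r = 0.996), Pcdhgc5, a clustered protocadherin (0.994), and Adora1, the adenosine A1 receptor (0.992). For Rbfox2 they were Tsnax (0.996), Gucy1b3, a subunit of soluble guanylate cyclase (0.994), and Mettl1, a tRNA methyltransferase (0.991). For Rbfox3 they were Psma7, a proteasome subunit (0.998), Tppp, a tubulin-binding protein (0.997), and Fbxo31 (0.996). With 6 libraries, which share their normalization, 375, 223 and 262 genes had an r above 0.9 with Rbfox1, Rbfox2 and Rbfox3, so a high r does not set these genes apart.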

How the data were processed

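Hippocampal RNA of 6 mice was sequenced as stranded total RNA. Per the labels and the study's methods, the authors trimmed reads with Cutadapt 1.18, aligned them to mm10 with STAR 2.5.2b, and deposited RSEM 1.3.0 expected counts per GENCODE M16 isoform, one table for the series; they tested with EBSeq, which was not used here. The strand setting of the counting is not given in the sources used here. Expected counts were rounded and filtered with filterByExpr (minimum count 10), normalized by TMM and tested in edgeR 4.0.16 (R 4.3.3) by glmQLFTest and, for isoform use, diffSpliceDGE, over all isoforms or gene sums, with Benjamini-Hochberg adjustment. Normalized counts are scaled to the mean effective library of the 6 mice. Alternatives used limma 3.58.1 and DESeq2 1.42.0. Shares and TPM used unrounded counts and GENCODE M21 lengths, since M16 was not used here; single values were compared by two-sided exact permutation (SciPy 1.17.1), which with 3 against 3 cannot go below 0.1. The edgeR fits of isoforms, isoform use and gene sums were tested on simulated counts, and the other steps were not. Named genes were all Rbfox isoforms, the 3 genes most alike to each Rbfox gene, and the called or otherwise extreme members of the partner and target lists. The members and lists were chosen with earlier results of these data known.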

Additional observations from a re-analysis of the deposited data

How the results depend on the processing

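The calls were refitted with other normalizations, filters, tools, a term for Xist counts, the replicate number as a block and without each mouse. The Rbfox gene sums and the partner and target gene sums stayed at 0 calls in edgeR, limma-voom and DESeq2, and the Rbfox isoforms at 0 except for 1 (Rbfox1-202) with DESeq2's Wald test. The deviations of same-numbered mice from their group means correlated with r = 0.37, -0.08 and -0.19. With 3 mice per group, these values cannot tell whether the replicate numbers pair the mice, and the labels do not say. Both replicates 1, which had the Xist counts, deviated together. The highest r, 0.42, was that of mice with unlike numbers, N-cre;Fox1 mouse 2 and N-cre mouse 3, which had the high choroid plexus markers. With the replicate block, the count of partner and target genes called for isoform use went from 1 to 0, and the calls for isoform use over the whole table went from 92 to 64 isoforms and from 88 to 51 genes. The counts of calls among the Rbfox isoforms and sums stayed at 0, and those over all isoforms and gene sums at 0 and 5. Without each mouse in turn the count of partner and target genes called for isoform use was 0 to 1. The Rbfox1-202 share difference was then 3.00 to 3.68 and that of the Rbfox1 share of the paralogs 1.33 to 2.03 percentage points. Several small log2 changes reversed when single mice were left out, with ranges of -0.033 to 0.076 for the Rbfox1 sum, -0.049 to 0.041 for the Rbfox3 sum, -0.10 to 0.019 for Rbfox1-201, -0.011 to 0.17 for Rbfox2-201, -0.20 to 0.74 for Rbfox2-206, -0.22 to 0.082 for Rbfox2-213, -0.42 to 1.37 for Rbfox3-202 and -0.16 to 0.44 for Rbfox3-206, and -0.0033 to 0.0023 for the use of Rbfox2-203. The share of Rbfox3 among the paralogs differed by -0.30 percentage points per length and by 0.229 by counts without length. The cause of these changes was not tested.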
